A study of Homo sapiens with 12 samples.

Results

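The genes described are 9 transcripts used to mark stem-like cells of the prostate, namely the surface proteins CD44, CD24, PROM1 and ALCAM and the aldehyde dehydrogenases ALDH1A1, ALDH1A3, ALDH3A1, ALDH7A1 and ALDH2. They were taken by name, through the Ensembl identifier of each symbol, and all 9 were found among the 28747 genes of the count table. Their reads were compared in 12 RNA-seq libraries of DU145, a long-established line of human prostate cancer cells. Each cell population carried a lentiviral short hairpin RNA, either a control hairpin (shCtrl) or a hairpin for knockdown that the labels call shSigma. Both populations were grown as adherent bulk cultures in medium with serum or as tumor spheres, that is, at low density on a non-adhesive surface in serum-free medium with growth factors. The 4 groups of 3 libraries are therefore adherent shCtrl, adherent shSigma, tumor sphere shCtrl and tumor sphere shSigma. Sphere culture changed the medium, the attachment and the cell density together, and the parts of these cannot be told apart. All libraries come from 1 cell line, and which of the study's hairpins the shSigma cells carried, or whether they were a pool or a clone, is not given in the sources used here. Knockdown effects below are differences between shSigma and shCtrl cells. Loss of the target cannot be told apart from other differences between these populations.

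CD44 is the main cell surface receptor for hyaluronan, and CD24 is a small, heavily glycosylated protein tethered to the membrane by a lipid anchor. Cells sorted as rich in CD44 and poor in CD24 are often used as a stem-like fraction of epithelial tumors. Aldehyde dehydrogenases oxidize aldehydes to acids, and the ALDH1A enzymes make retinoic acid from retinaldehyde. Their combined activity is what fluorescent aldehyde dehydrogenase assays read when stem-like cells are sorted.

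Libraries held between 16472722 and 26957777 counts, with a lower range in tumor spheres (16472722 to 19698970) than in adherent cells (19542016 to 26957777), and no pair of replicates was as close as sampling noise alone would leave them (chi-square per gene 2.73 to 43.9, where noise alone gives about 1). Levels are given as CPM, counts scaled to a common library total, on library sizes scaled by edgeR's TMM factors, and comparisons are edgeR quasi-likelihood tests adjusted over all genes tested by the Benjamini-Hochberg method, with a gene called at an adjusted p under 0.05. Of the 9 genes, 7 passed the filter on low counts, and PROM1 and ALDH1A1 did not. All 5 epithelial markers examined (EPCAM, KRT8, KRT18, KRT19, CDH1) were present in every library, whereas KLK3 and KLK2 had at most 2 counts and the basal keratins KRT5 and KRT14 at most 1. The summed epithelial level moved with the groups. It was 878 to 964 CPM in adherent shCtrl and 1141 to 1453 CPM in adherent shSigma libraries. In tumor spheres it was 2285 to 2349 CPM in shCtrl and 897 to 954 CPM in shSigma libraries. The sum hides opposite moves of its members. After knockdown in adherent cells mean EPCAM fell from 235 to 30.9 CPM, and CDH1 fell as well. The means of KRT8 (from 234 to 413 CPM), KRT18 (from 321 to 502 CPM) and KRT19 (from 92.7 to 359 CPM) rose. Across libraries CDH1 ranged from 10.7 to 770.0 CPM, with its highest mean, 727 CPM, in tumor sphere shCtrl. The part of these shifts in the results below was not tested.

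Of the surface markers among the 9 genes, CD24 differed most from its level in adherent shCtrl cells, in the same direction for sphere culture and for knockdown. CD24 (ENSG00000272398, chromosome 6, minus strand) stood at 21.9, 23.0 and 23.6 CPM in adherent shCtrl libraries, at 246, 282 and 272 CPM in tumor sphere shCtrl libraries, at 491, 465 and 529.9 CPM in adherent shSigma libraries and at 601, 642 and 627 CPM in tumor sphere shSigma libraries. The 4 groups did not overlap, and the low group was the adherent control alone. In shCtrl cells CD24 rose 11.7-fold in tumor spheres (log2 fold change 3.55, SE 0.0759, adjusted p = 7.64e-08), a change larger in size than that of 98.8% of the genes tested. Knockdown raised it 20.8-fold in adherent cells (4.38, SE 0.0671, adjusted p = 1.19e-07) and 2.33-fold in tumor spheres (1.22, SE 0.0611, adjusted p = 1.48e-08). In bulk RNA, more cells with a transcript and more of it per cell cannot be told apart.

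The step from adherent culture to tumor spheres was small for CD24 after knockdown. In shSigma cells it was 0.35 on the log2 scale (SE 0.0536, adjusted p = 0.00135), and whether this step differed between the hairpins was tested by their interaction with culture in a fit of 12 libraries. The interaction was -3.22 (SE 0.101, adjusted p = 2.36e-10). Equally, it is the amount by which the knockdown effect was smaller in tumor spheres than in adherent cells. The sphere comparison in shCtrl cells and the knockdown comparison in adherent cells share the adherent shCtrl libraries, which hold the lowest CD24 values, so the similar size of the changes is not independent evidence. The 40 tested genes nearest to CD24 on the chromosome had a median log2 fold change of -0.23 in the former comparison and -0.08 in the latter. Annotated pseudogenes of CD24 were not analysed here, and reads that fit both CD24 and a pseudogene may have been counted or dropped in a way that is not stated.

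Of the surface markers among the 9 genes, CD24 is also the one whose upstream sequence is shown, since its level differed most from the adherent control. The 250 bases before the most upstream of its RefSeq start sites (GRCh38.p14, chr6:106975628-106975877, minus strand) lie outside the span of the gene in GENCODE release 44 and outside other genes. Motifs were searched on both strands, with capitals for matches. The first was TATAAA, the usual spelling of the TATA box. The CCAAT box was searched by its own letters and the GC box, a site of SP1 proteins, as GGGCGG. The E-box bound by MYC and its relatives was spelled CACGTG. The core of nuclear receptor sites was taken as AGGTCA, and that of TCF factors in Wnt signaling as CTTTGA.
CD24: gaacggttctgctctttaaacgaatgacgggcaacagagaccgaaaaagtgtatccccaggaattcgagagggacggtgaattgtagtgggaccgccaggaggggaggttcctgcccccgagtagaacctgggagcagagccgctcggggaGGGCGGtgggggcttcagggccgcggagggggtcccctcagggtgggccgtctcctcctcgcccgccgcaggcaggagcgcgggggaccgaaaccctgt
This window has 65.6% G and C, against a median of 58.0% over the 35116 RefSeq windows of this length, and 1 match, a GC box, which 42.6% of all windows hold. A match is a description of letters and not evidence of binding. Windows for 7 of the 9 genes were found in the RefSeq table used here.

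**Figure D1:**
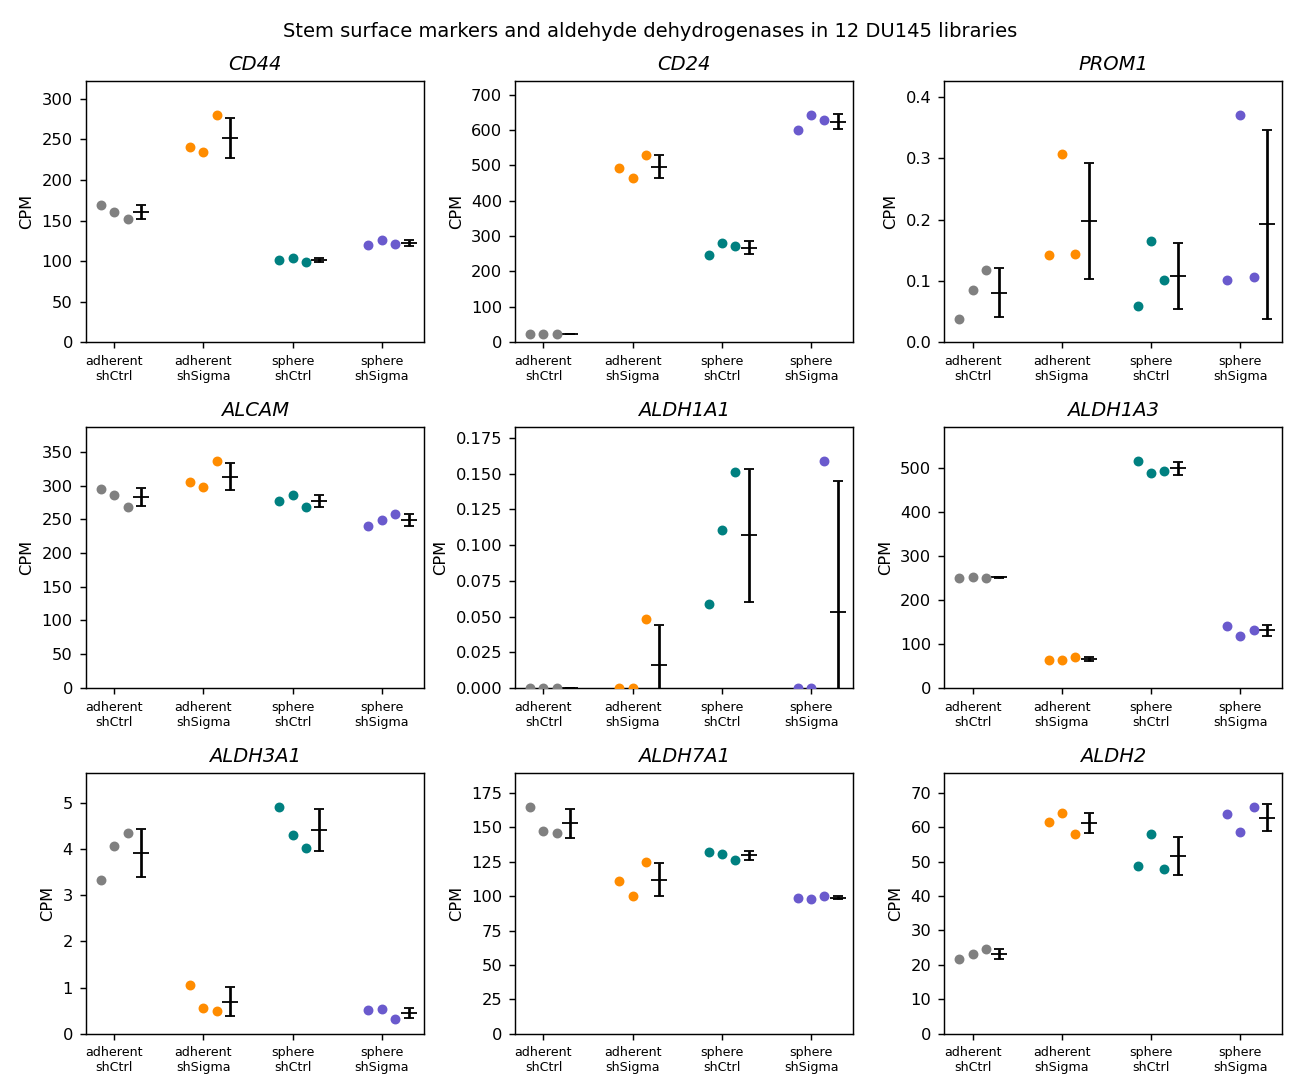
Level of each of the 9 genes in the 12 libraries (y axis, CPM from 0, with its own range in each panel; x axis, group). Dots are libraries in replicate order and bars give the mean ± SD of 3 libraries, cut off at 0. CD24 is low only in adherent shCtrl cells, ALDH1A3 is highest in tumor sphere shCtrl libraries (489.8 to 517 CPM), and PROM1 and ALDH1A1 stay below 0.4 CPM.

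CD44 moved against CD24 in sphere culture and with it after knockdown. CD44 (ENSG00000026508, chromosome 11) had 169, 161 and 152 CPM in adherent shCtrl, 241, 235 and 280.0 CPM in adherent shSigma, 101, 104 and 98.5 CPM in tumor sphere shCtrl and 119.8, 126 and 121 CPM in tumor sphere shSigma libraries. The groups did not overlap, both sphere groups lay below both adherent groups, and within each culture the shSigma libraries were the higher. CD44 fell in tumor spheres of shCtrl cells (-0.67, SE 0.0617, adjusted p = 7.18e-05) and of shSigma cells (-1.02, SE 0.0615, adjusted p = 1.49e-05). Knockdown raised it in adherent cells (0.59, adjusted p = 7.06e-04) and, 1.21-fold, in tumor spheres (0.27, adjusted p = 7.73e-04). The difference between these effects was -0.38 (SE 0.101, adjusted p = 0.0123), and it lost its call when 1 of 6 particular libraries was left out (adjusted p up to 0.0751). The counts cover the gene as a whole and do not separate the standard CD44 isoform from the variant isoforms, and the antisense neighbor CD44-DT had at most 18 counts in a library.

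The balance of CD44 and CD24 reads, which is free of library scaling, shifted toward CD24 in every step away from the adherent control. With 0.5 added to each count, the log2 ratio of CD44 to CD24 counts was 2.81 ± 0.13 (SD, n = 3) in adherent shCtrl libraries, -0.98 ± 0.05 in adherent shSigma libraries, -1.40 ± 0.09 in tumor sphere shCtrl libraries and -2.35 ± 0.02 in tumor sphere shSigma libraries. In the adherent control CD44 reads outnumbered CD24 reads by 6.43 to 7.70 to 1, and in the other 3 groups CD24 reads were the more numerous. The ratio fell by 4.21 in tumor spheres of shCtrl cells and by 3.79 after knockdown in adherent cells, with 0.95 as the drop after knockdown in spheres and 1.37 as that between the cultures of shSigma cells, and in each of these comparisons the 3 libraries of one group lay apart from the 3 of the other. An exact permutation test of 3 libraries against 3 cannot give less than p = 0.1, which was its two-sided value in all 4 comparisons (adjusted p = 0.133 over 8 tests). The ratio is one of reads, not of molecules or of surface protein.

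**Figure D2:**
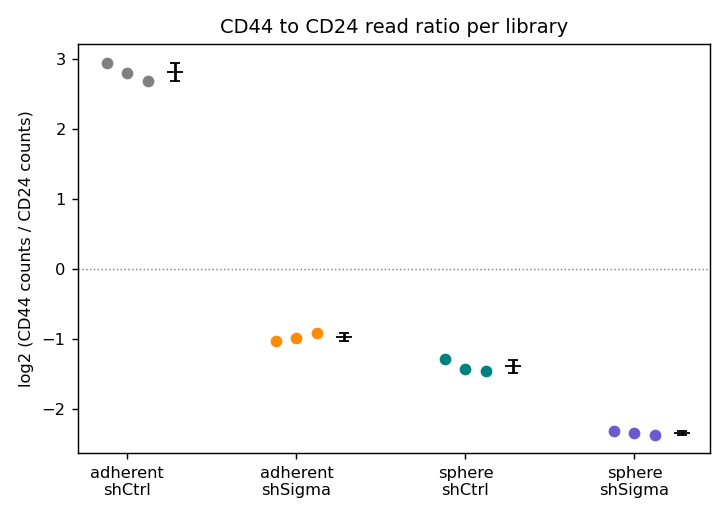
Log2 ratio of CD44 to CD24 counts (y axis) in the 12 libraries by group (x axis), with dots for libraries and bars for the mean ± SD of 3. Only the adherent shCtrl libraries lie above 0, the line of equal counts, and the tumor sphere shSigma libraries are the lowest.

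ALCAM, a cell adhesion molecule of the immunoglobulin family also known as CD166, was the steadiest of the well expressed surface markers among the 9 genes. It had 295, 285 and 268 CPM in adherent shCtrl, 305, 298 and 337 CPM in adherent shSigma, 277, 286 and 269 CPM in tumor sphere shCtrl and 240.2, 249 and 258 CPM in tumor sphere shSigma libraries. The shCtrl groups of the 2 cultures overlapped and their difference was -0.03 (SE 0.0599, adjusted p = 0.698). In adherent cells the knockdown difference was 0.08 (SE 0.0701, adjusted p = 0.366), although the 3 shSigma libraries were the higher. ALCAM fell in tumor spheres after knockdown (-0.16, SE 0.0506, adjusted p = 0.0180) and in shSigma cells between the cultures (-0.31, adjusted p = 0.00230). The former call was lost without tumor sphere shSigma replicate 1 (adjusted p = 0.108) or replicate 2 (0.0526), in the fit of all 12 libraries (0.0601) and with the replicate number as a block (0.0536). The interaction of -0.30 (adjusted p = 0.0227) was kept in 3 of 17 alternatives.

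PROM1, the pentaspan membrane protein prominin-1 known as CD133, was hardly detected. Its counts in the order of the replicates were 1, 2 and 3 in adherent shCtrl, 3, 6 and 3 in adherent shSigma, 1, 3 and 2 in tumor sphere shCtrl and 2, 7 and 2 in tumor sphere shSigma libraries. The highest count corresponds to 0.371 CPM, and 3 counts, taken here as the floor of detection, correspond to 0.115 to 0.176 CPM depending on the library. The adherent shSigma libraries lay above the adherent shCtrl libraries in CPM, although a count of 3 occurs in both groups, and without the filter on low counts edgeR gave an adjusted p of 0.266. The other pairs of groups overlapped, and a difference was not detectable at this depth.

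Among the aldehyde dehydrogenases ALDH1A3 had the highest level per kilobase in shCtrl cells and moved in opposite directions in the sphere and the knockdown comparisons. ALDH1A3 (ENSG00000184254, chromosome 15), which makes retinoic acid, had 251, 253 and 250.0 CPM in adherent shCtrl, 62.7, 64.7 and 70.4 CPM in adherent shSigma, 517, 489.8 and 494 CPM in tumor sphere shCtrl and 142, 118 and 133 CPM in tumor sphere shSigma libraries. No groups overlapped, and both shSigma groups lay below both shCtrl groups. It rose 1.99-fold in tumor spheres of shCtrl cells (0.99, SE 0.0547, adjusted p = 5.14e-06) and 2.02-fold in those of shSigma cells (1.01, SE 0.0739, adjusted p = 3.90e-05). Knockdown lowered it 3.99-fold in adherent cells (-2.00, SE 0.0594, adjusted p = 1.97e-06) and 3.84-fold in tumor spheres (-1.94, SE 0.0676, adjusted p = 8.39e-10). The interaction was -0.0036 (SE 0.101, adjusted p = 0.986). A p of this size does not show that the effects were equal. The median over the 40 nearest tested genes was -0.33 in adherent cells and -0.36 in tumor spheres after knockdown, the same direction as ALDH1A3 and less than its own change. The antisense gene ALDH1A3-AS1, with at most 92 counts in a library, shares exons with it.

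ALDH1A1, the other retinaldehyde dehydrogenase of the set and the one most often named in sorting assays, was at or near 0. No read was counted in 7 of the 12 libraries, and no library had more than 3. The counts in replicate order were 0, 0 and 0 in adherent shCtrl, 0, 0 and 1 in adherent shSigma, 1, 2 and 3 in tumor sphere shCtrl and 0, 0 and 3 in tumor sphere shSigma libraries. Per kilobase of the canonical transcript, ALDH1A3 had 144 ± 4.20 CPM and ALDH1A1 0.0509 ± 0.0222 CPM in tumor sphere shCtrl libraries (SD, n = 3). Without the filter on low counts edgeR called ALDH1A1 higher in tumor spheres of shCtrl cells (adjusted p = 0.0402), on 6 reads against 0, and its fitted fold change depends on the prior count. The log2 ratio of ALDH1A3 to ALDH1A1 counts rests on those few reads. After knockdown in tumor spheres it differed by -0.57 (exact permutation test, two-sided, p = 0.8), and its sign turned to 0.37 without tumor sphere shSigma replicate 3, the library with the 3 reads. Between the cultures of shSigma cells it differed by 0.49 (exact p = 0.6) and turned to -0.064 without tumor sphere shSigma replicate 1. In shCtrl cells it differed by -1.69 between the cultures and in adherent cells by -2.75 after knockdown, each with the smallest exact p of 0.1. The former became -0.98 with 1 count added to each gene in place of 0.5.

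The windows upstream of these 2 genes are shown because they code for enzymes of one reaction and their levels per kilobase in shCtrl cells lay at opposite ends of the family. Both are the 250 bases before the RefSeq start (GRCh38.p14), for ALDH1A3 chr15:100879581-100879830 on the plus strand and for ALDH1A1 chr9:72953054-72953303 on the minus strand. Each lies inside the longer span that GENCODE gives its gene, mostly in intron, with 18 bases of the ALDH1A3 window and 3 of the ALDH1A1 window in annotated exons of the gene. Another annotated gene, for a long noncoding RNA on the same strand, also overlaps the ALDH1A3 window. Capitals mark the same motifs as for CD24.
ALDH1A3: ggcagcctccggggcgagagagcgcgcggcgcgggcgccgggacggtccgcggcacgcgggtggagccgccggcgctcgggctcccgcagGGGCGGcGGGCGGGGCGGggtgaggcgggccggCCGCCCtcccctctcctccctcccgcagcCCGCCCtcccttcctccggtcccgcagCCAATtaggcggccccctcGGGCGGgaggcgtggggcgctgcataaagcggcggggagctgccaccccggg
ALDH1A1: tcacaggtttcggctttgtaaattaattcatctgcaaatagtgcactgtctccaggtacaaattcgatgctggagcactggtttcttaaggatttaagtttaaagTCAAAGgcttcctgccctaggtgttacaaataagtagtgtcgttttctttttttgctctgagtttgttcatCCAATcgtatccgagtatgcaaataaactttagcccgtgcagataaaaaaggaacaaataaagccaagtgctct
The ALDH1A3 window holds 6 GC boxes and 1 CCAAT box and has 82.4% G and C, which is above 98.6% of all windows. The ALDH1A1 window holds a CCAAT box and a TCF core, has 38.4% G and C (above 10.1% of windows) and no GC box. Over all windows, 32.0% hold a CCAAT box and 11.2% a TCF core. Neither the E-box (6.34% of all windows), the nuclear receptor core (12.1%) nor the TATA box as spelled (10.7%) was matched in these windows, which says only that those letters are not there.

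ALDH3A1, an enzyme that oxidizes medium-chain and aromatic aldehydes, was low in shCtrl cells and lower still after knockdown. It had 3.34, 4.06 and 4.34 CPM in adherent shCtrl, 1.05, 0.563 and 0.482 CPM in adherent shSigma, 4.92, 4.31 and 4.03 CPM in tumor sphere shCtrl and 0.504, 0.530 and 0.318 CPM in tumor sphere shSigma libraries. The shCtrl groups overlapped each other, the shSigma groups overlapped each other, and every shSigma library lay below every shCtrl library. These values stand for 78 to 110 counts in shCtrl and 6 to 22 counts in shSigma libraries. Knockdown lowered ALDH3A1 5.78-fold in adherent cells (-2.53, SE 0.287, adjusted p = 3.08e-04) and 9.66-fold in tumor spheres (-3.27, SE 0.230, adjusted p = 2.49e-07). The sphere differences were 0.17 (SE 0.158, adjusted p = 0.382) in shCtrl and -0.61 (SE 0.418, adjusted p = 0.259) in shSigma cells, and the interaction of -0.80 did not pass (adjusted p = 0.158).

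ALDH2 and ALDH7A1 are enzymes of the mitochondria, ALDH7A1 being found in the cytosol and nucleus as well. ALDH2, which clears acetaldehyde, had 21.6, 23.1 and 24.6 CPM in adherent shCtrl, 61.5, 64.0 and 58.0 CPM in adherent shSigma, 48.8, 58.0 and 47.9 CPM in tumor sphere shCtrl and 63.9, 58.6 and 66.0 CPM in tumor sphere shSigma libraries. As for CD24, the adherent control was the low group, but here the 2 shSigma groups overlapped. ALDH2 rose 2.23-fold in tumor spheres of shCtrl cells (1.16, SE 0.101, adjusted p = 5.21e-05), 2.54-fold after knockdown in adherent cells (1.35, SE 0.0870, adjusted p = 2.82e-05) and 1.22-fold after knockdown in tumor spheres (0.28, SE 0.0794, adjusted p = 0.00893). In shSigma cells the sphere difference was 0.06 (SE 0.0744, adjusted p = 0.540), and the interaction was -1.12 (SE 0.123, adjusted p = 1.65e-05). Again the sphere comparison of shCtrl cells and the adherent knockdown comparison share the low libraries.

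ALDH7A1, which acts in the breakdown of lysine, changed by at most 1.43-fold where it was called. It had 165, 147 and 146 CPM in adherent shCtrl, 111, 100.4 and 125 CPM in adherent shSigma, 132, 130.4 and 126 CPM in tumor sphere shCtrl and 98.9, 97.8 and 99.8 CPM in tumor sphere shSigma libraries. The groups did not overlap, with the shSigma group below the shCtrl group of the same culture. Knockdown lowered ALDH7A1 in adherent cells (-0.51, adjusted p = 0.00229) and in tumor spheres (-0.39, adjusted p = 2.98e-05), and it fell in tumor spheres of shCtrl cells (-0.24, adjusted p = 0.0162). The last call was lost without tumor sphere shCtrl replicate 3 (adjusted p = 0.0648), and between the cultures of shSigma cells the difference was -0.16 (adjusted p = 0.0835). Its 40 nearest tested genes had medians of -0.13, -0.21 and -0.21 in the 3 comparisons with a call, in the last close to the change of ALDH7A1 itself. Pseudogenes of ALDH7A1 were not analysed here either, and reads shared with them are uncertain.

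Read side by side, the genes fell into different patterns of sphere and knockdown effects. CD24 and ALDH2 were higher in tumor spheres of shCtrl cells and higher after knockdown in both cultures. CD44 was lower in spheres and higher after knockdown, ALDH1A3 was higher in spheres and lower after knockdown, and ALDH7A1 was lower after knockdown and, in shCtrl cells, in spheres. ALDH3A1 was called only in the knockdown comparisons. The difference between its sphere and knockdown effects was not tested.

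**Figure D3:**
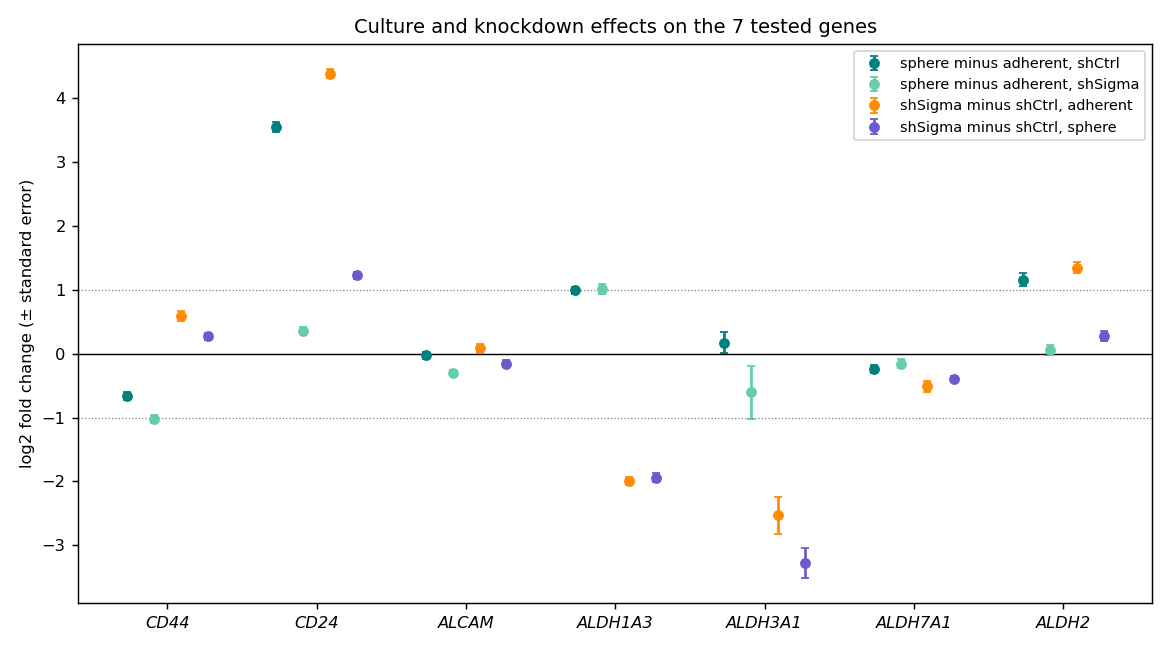
Log2 fold change (y axis) of the 7 tested genes (x axis) in the 4 pairwise comparisons. Points are edgeR estimates, error bars are ± 1 standard error and the dotted lines mark log2 fold changes of -1 and 1. CD24 reaches 4.38 and 3.55 where the adherent shCtrl libraries are the reference, and ALDH1A3 and ALDH3A1 lie below -1 after knockdown in both cultures.

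Counts of calls have to be read against all genes, since much of the transcriptome differed between the groups. Of the 7 tested genes, 5 were called between tumor spheres and adherent shCtrl cells (3 higher, 2 lower), against 53.7% of all genes tested (27.4% higher, 26.3% lower). Between the cultures of shSigma cells 4 were called (2 higher, 2 lower), against 47.1% (21.9% and 25.2%). After knockdown, 6 were called in adherent cells (3 higher, 3 lower), where 22.3% of all genes rose and 27.7% fell, 50.0% together. In tumor spheres 7 were called (3 higher, 4 lower), against 61.1% (30.2% and 30.9%). The interaction was called for 4 genes, each negative, against 28.4% of all genes (12.7% positive, 15.6% negative). Groups of libraries did not overlap for 5 genes in the sphere comparison of shCtrl cells and for 5 in that of shSigma cells (62.7% and 60.8% of all genes tested), and for 7 genes in each knockdown comparison (57.9% in adherent cells, 66.8% in tumor spheres). With so few genes, these shares do not set the list apart from the background. A call together with an absolute log2 fold change over 1 was made for 4 of the 7 genes after knockdown in adherent cells (13.7% of all genes), for 3 in tumor spheres (13.1%) and for 2 in each sphere comparison (15.8% in shCtrl and 9.32% in shSigma cells).

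The place of ALDH1A3 among all 19 aldehyde dehydrogenase genes changed with the groups. Levels were summed per kilobase of canonical transcript, so that genes of different length can be compared. Shares and ranks depend on this choice of length, and other lengths were not tried. For ALDH7A1 the canonical transcript has 4765 bases, and all annotated exons together have 17914. The family sum was 312 ± 4.60 CPM per kilobase in adherent shCtrl and 310 ± 1.41 in adherent shSigma libraries, so the total differed little there, and 423 ± 9.05 in tumor sphere shCtrl and 325 ± 9.97 in tumor sphere shSigma libraries (SD, n = 3). ALDH1A3 made up 23.3 ± 0.50% of it in adherent shCtrl libraries and ranked 1 of 19, but 6.14 ± 0.343% with rank 7 in adherent shSigma libraries. In tumor spheres its share was 34.1 ± 0.586% with rank 1 in shCtrl and 11.6 ± 0.743% with rank 4 in shSigma libraries. ALDH3A2, which oxidizes fatty aldehydes and was picked out after its values were seen, ranked 1 in both shSigma groups with 22.2 ± 2.08% and 25.1 ± 0.966%. ALDH7A1 held 6.39% to 10.3% of the sum on average, ALDH2 0.775% to 2.07% and ALDH3A1 0.0848% to 0.766%.

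**Figure D4:**
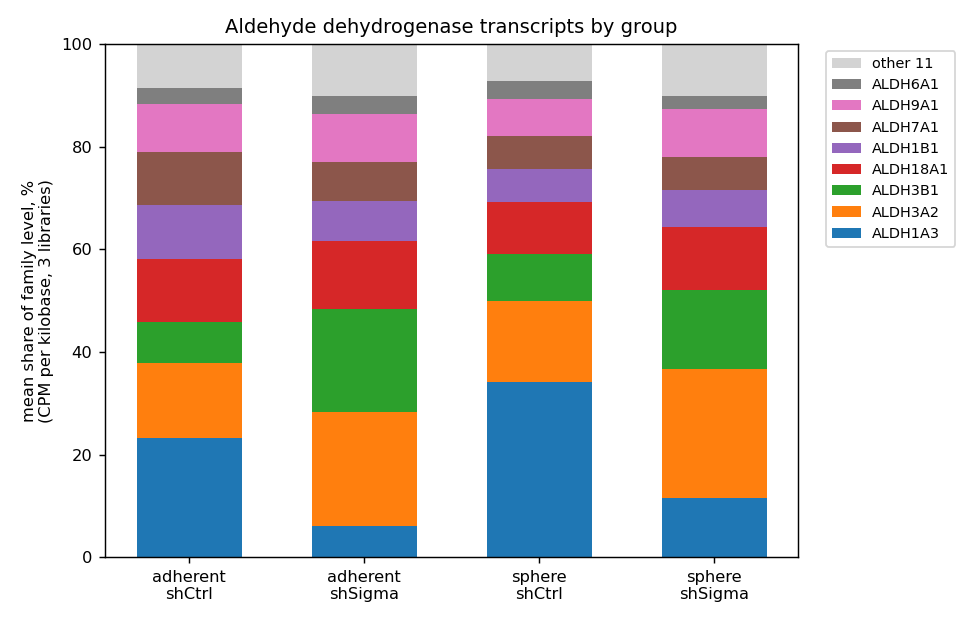
Mean share (y axis, percent of the family sum of CPM per kilobase, 3 libraries a group) of the 8 aldehyde dehydrogenases with the largest share in any group, and of the other 11 together, by group (x axis). ALDH1A3, at the base of each column, holds 23.3% and 34.1% in the shCtrl groups and 6.14% and 11.6% in the shSigma groups.

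Of the 14 other aldehyde dehydrogenases, 12 were tested. In shCtrl cells 7 of them were called between the cultures (4 higher, 3 lower), and in shSigma cells 5 (2 higher, 3 lower). After knockdown 4 were called in adherent cells (2 higher, 2 lower) and 8 in tumor spheres (4 higher, 4 lower). In the same order, 53.7%, 47.1%, 50.0% and 61.1% of all genes tested were called. The median log2 fold change of the 12 was 0.30, -0.02, 0.0044 and 0.05 in these comparisons, beside 0.04, 0.0025, -0.01 and 0.0015 over all genes tested. ALDH3B1 rose after knockdown in adherent cells (1.26, adjusted p = 0.00574), from 70.2 ± 18.3 to 174 ± 33.7 CPM. ALDH16A1, a member of the family without the usual catalytic residue, rose after knockdown in tumor spheres (1.27, adjusted p = 0.00177) and between the cultures of shSigma cells (1.69, adjusted p = 0.0175). ALDH8A1, at 1.24 ± 0.0889 CPM or less, fell in tumor spheres of shCtrl cells (-1.38, adjusted p = 0.00234).

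Genes that act on the product of ALDH1A3, retinoic acid, or on its precursors differed in several directions. Of 21 genes for retinoid handling and receptors, 12 were tested in shCtrl cells, of which 8 were called between the cultures (6 higher, 2 lower). Knockdown changed 7 of 11 tested in adherent cells (3 higher, 4 lower) and 9 of 12 in tumor spheres (4 higher, 5 lower), and 7 of 11 (5 higher, 2 lower) differed between the cultures of shSigma cells. Of all genes tested, 53.7%, 50.0%, 61.1% and 47.1% were called in these comparisons. The medians were 0.39, -0.19, -0.13 and 0.48. CRABP2, which carries retinoic acid to the nucleus, rose in tumor spheres of shCtrl cells (2.37, adjusted p = 1.52e-06) and fell after knockdown in tumor spheres (-1.91, adjusted p = 3.90e-09), with 117 ± 13.1 CPM in tumor sphere shCtrl and 31.3 ± 0.190 CPM in tumor sphere shSigma libraries. Its paralog CRABP1 had 14 to 23 counts in tumor sphere shCtrl libraries and none in any shSigma library, at least 6.97-fold lower in the spheres against a floor of 3 counts in each library. TGM2, a transglutaminase that retinoic acid is known to induce, fell in spheres of shCtrl cells (-1.36) and rose after knockdown in both cultures (1.61 and 2.72), in tumor spheres from 209 ± 20.2 to 1380 ± 35.3 CPM. FABP5, a carrier of fatty acids that also binds retinoic acid, fell after knockdown in adherent cells (-2.04) and rose between the cultures of shSigma cells (1.02). DHRS3, which turns retinaldehyde back to retinol, and the receptor RARA rose after knockdown in adherent cells (1.26 and 1.04).

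The genes around CD44 included some of the largest differences of any list examined. Of 18 genes for hyaluronan turnover and CD44 partners, 12 of 16 tested were called between the cultures of shCtrl cells (8 higher, 4 lower) and 5 of 15 between those of shSigma cells (2 higher, 3 lower). After knockdown 9 of 16 were called in adherent cells (4 higher, 5 lower) and 12 of 17 in tumor spheres (3 higher, 9 lower). The shares called over all genes tested were 53.7%, 47.1%, 50.0% and 61.1% in the same order. The medians were 0.21, 0.09, -0.10 and -0.19. ESRP1, a splicing factor of epithelial cells that favors variant exons of CD44, fell from 75.4 ± 3.58 to 2.57 ± 0.558 CPM after knockdown in adherent cells (-4.94, adjusted p = 1.97e-06) and from 160.3 ± 7.90 to 2.77 ± 0.621 CPM in tumor spheres (-5.86, adjusted p = 8.36e-12), and it rose in spheres of shCtrl cells (1.09). Whether the isoforms of CD44 shifted with it was not tested, since the counts are per gene. CEMIP, which breaks down hyaluronan, stood at 0.791 ± 0.139 CPM in adherent shCtrl and 122 ± 21.4 CPM in tumor sphere shCtrl libraries (7.26, adjusted p = 2.89e-07), with 21.1 ± 2.55 and 22.0 ± 0.575 CPM in the shSigma groups. Knockdown therefore raised it in adherent cells (4.67) and lowered it in tumor spheres (-2.47), and the interaction was -7.20 (adjusted p = 2.36e-10). Of the enzymes that make hyaluronan, HAS2 fell after knockdown in both cultures (-2.76 and -2.01, from at most 2.79 ± 0.138 CPM), and HAS3 rose in spheres of shCtrl cells (1.31) and fell after knockdown in tumor spheres (-1.84). The hyaluronidase HYAL1 rose after knockdown in adherent cells (2.56) and fell between the cultures of shSigma cells (-2.05), and HYAL2 rose in spheres of shCtrl cells (1.33).

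Other surface proteins that are used to sort stem-like prostate cells moved in both directions as well. Of 23 such genes, 17 of 20 tested were called between the cultures of shCtrl cells (13 higher, 4 lower, median 1.06) and 14 of 21 between those of shSigma cells (6 higher, 8 lower, median -0.27). After knockdown 15 of 21 were called in adherent cells (10 higher, 5 lower, median 0.41) and 17 of 21 in tumor spheres (8 higher, 9 lower, median 0.0049). Beside these counts, 53.7%, 47.1%, 50.0% and 61.1% of all genes tested were called in the same order. EPCAM, an adhesion molecule of epithelial cells, fell after knockdown (-2.99 and -3.31), as did MCAM, known as CD146 (-3.15 and -2.81). PROM2, the paralog of the barely detected PROM1, reached 11.1 ± 1.45 CPM in tumor sphere shCtrl libraries. It rose there against adherent cells (4.07, adjusted p = 2.15e-06) and fell after knockdown in tumor spheres (-3.82, adjusted p = 4.60e-08) to 0.785 ± 0.332 CPM. The efflux transporter ABCG2 rose in spheres of both cell populations (2.65 and 1.35), as did the chemokine receptor CXCR4 (3.15 and 1.88). The receptor tyrosine kinase KIT rose after knockdown in adherent cells (5.41, from 0.176 ± 0.129 to 7.97 ± 1.22 CPM) and fell between the cultures of shSigma cells (-2.12).

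Some genes followed the members closely over the 12 libraries. Likeness was measured as the root mean square difference of log2 CPM after centring each gene on its mean, among 10774 genes (10775 for ALDH3A1) of at least 5 CPM on average, and it is a description without a test. BNIP3L and YOD1 were the most like CD44 (0.0756 and 0.0904, median over all genes 0.565). For CD24, EDIL3 and MEGF9 came nearest (0.390 and 0.507, median 1.89), EDIL3 with means of 31.6, 470, 250.1 and 403 CPM in adherent shCtrl, adherent shSigma, tumor sphere shCtrl and tumor sphere shSigma libraries, so that, unlike CD24, it had its highest mean in adherent shSigma cells. CPVL and AREG were the most like ALDH1A3 (0.192 and 0.227, median 1.13), AREG with 253, 65.5, 489 and 93.5 CPM in adherent shCtrl, adherent shSigma, tumor sphere shCtrl and tumor sphere shSigma libraries. The nearest to ALDH3A1 were ZBTB8B and TMEM40 (0.283 and 0.297), and to ALDH2 they were PDE9A and ASS1 (0.142 and 0.146). Where called in a pairwise comparison, ALCAM and ALDH7A1 changed by at most 1.43-fold. CUL5 and RAB22A were nearest to ALCAM (0.0346 and 0.0367, median 0.307), and ZZZ3 and MKRN2 to ALDH7A1 (0.0416 and 0.0438, median 0.360). The 12 libraries come from 1 cell line and fall into 4 groups by hairpin and culture, so genes that differ between the same groups score as alike.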

How the data were processed

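RNA of adherent and tumor sphere DU145 cells, 3 replicates a group, had been sequenced by the authors as directional libraries from 800 ng of total RNA with 75 nt single-end reads. The authors aligned and counted reads with STAR (2.6.1c, genome GRCh38.p12, per the submitters' processing notes) and deposited the raw counts per gene without normalization. Which annotation and strand setting they used, and how multi-mapped reads were handled, is not given in the sources used here. The labels gave each library's group and replicate number, and every count column was used.

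Symbols came from GENCODE release 44, which named 26153 of 28747 identifiers. Counts were analysed with edgeR 4.0.16 in R 4.3.3 (TMM, filterByExpr at a minimum count of 10, prior count 0.125). Each pairwise comparison used its own 6 libraries and edgeR's two-sided quasi-likelihood test (robust option), adjusted by Benjamini-Hochberg over 13800 and 13622 genes between the cultures of shCtrl and shSigma cells and over 13764 and 13774 after knockdown in adherent cells and tumor spheres. The interaction used all 12 libraries and 14175 genes. Ratios of counts used an exact permutation test. The steps were tested on simulated data. P-values measure the spread between these replicates, which the study describes as independent. That spread does not cover differences between hairpins or between separately made cell populations. Counting floors cover counting error only, since reads carried no molecular identifiers.

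The members and lists were chosen with earlier results of these data known. Named are the members, the 2 genes most like each tested member, and from each list up to 4 called genes of largest absolute log2 fold change (over 1) per pairwise comparison. The gene targeted by the hairpin and some other genes that this rule takes in are not reported here. Lists of cell type markers for luminal prostate (6.45 to 22.5 CPM summed), basal prostate (0.0384 to 0.331), neuroendocrine cells (1.05 to 3.92), fibroblasts (3.57 to 26.7, highest in tumor sphere shCtrl), leukocytes (0.117 to 1.33) and endothelium (0.127 to 1.29) were read beside the epithelial one. Most of the fibroblast sum was COL1A1 (3.23 to 24.9 CPM). COL1A2 reached 2.03 CPM at most, PDGFRA 8 counts and DCN 3 counts, and LUM had 0 counts. As alternatives, DESeq2 1.42.0 replaced edgeR, or gave it size factors. The filter was dropped or raised to 10 counts in each library. All libraries shared 1 fit, a fold threshold or the replicate block was added, each library was left out in turn and, for ratios, 1 count added in place of 0.5. Python 3.11.15 with matplotlib 3.10.9 drew the figures.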

Additional observations from a re-analysis of the deposited data

Results flagged for a closer look

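For 4 of the 7 tested genes, the effect of knockdown differed between tumor spheres and adherent cells by edgeR's quasi-likelihood test of the interaction over 12 libraries, a call made for 28.4% of all genes tested. The interaction, given as tumor spheres minus adherent cells on the log2 scale, was -3.22 for CD24 and -1.12 for ALDH2, where knockdown raised the gene less in tumor spheres than in adherent cells. It was -0.38 for CD44, in the same sense, and -0.30 for ALCAM, whose knockdown difference was 0.08 in adherent cells but -0.16 in tumor spheres. The interactions of CD24 and ALDH2 were called in 17 of 17 alternatives, that of CD44 in 11 and that of ALCAM in 3, leaving aside the fold threshold.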

How the results depend on the processing

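Over the members, 434 values under alternatives kept their direction and their side of the threshold, 38 fell out of the calls, 1 entered them (ALDH7A1 between the cultures of shSigma cells without adherent shSigma replicate 2, adjusted p = 0.0202) and 14 turned direction. The tally includes the added fold threshold, which leaves each value unchanged and can only end a call. The 14 all belong to the interaction of ALDH1A3, close to 0 and not called in any of them, which became 0.038 with DESeq2 and with its size factors, 0.078 without the filter and 0.059 with 10 counts in every library. Without single libraries the values that turned were 0.0079 to 0.11, within a whole range of -0.039 to 0.11. Uncalled differences of 6 list genes also turned, with ranges without single libraries of -0.046 to 0.43 for ALDH8A1 and -0.025 to 0.31 for ESRP1 between the cultures of shSigma cells, -0.30 to 0.25 for HYAL2 and -0.25 to 0.36 for ALDH16A1 after knockdown in adherent cells, and -0.36 to 0.15 for HYAL1 and -0.14 to 0.053 for DHRS3 after knockdown in tumor spheres. ALDH16A1 was also 0.0019 with DESeq2 and 0.025 in 1 fit of all 12 libraries. The fold threshold, which by construction leaves fewer genes, gave 2180 and 1270 called genes between the cultures of shCtrl and shSigma cells, 1889 and 1806 after knockdown in adherent cells and tumor spheres, and 1210 for the interaction. Without it these counts were 7404, 6414, 6886, 8414 and 4024. Leaving out 1 library at a time gave 5679 to 8364, 4723 to 7753, 5160 to 7101, 7557 to 8260 and 3232 to 4691. The log2 ratio of ALDH1A3 to ALDH1A1 turned to -0.064 between the cultures of shSigma cells (range -0.064 to 1.43) and to 0.37 after knockdown in tumor spheres (range -1.12 to 0.37) without single tumor sphere shSigma libraries. Its other ranges were -1.99 to -1.46 between the cultures of shCtrl cells and -3.0 to -2.28 after knockdown in adherent cells. With 1 count added in place of 0.5, its value of -1.69 between the cultures of shCtrl cells became -0.98, since the adherent control has no ALDH1A1 reads, and -0.57 after knockdown in tumor spheres became -1.01. For CD44 to CD24 the ranges were -4.27 to -4.14 and -1.40 to -1.34 between the cultures of shCtrl and shSigma cells, and -3.85 to -3.72 and -0.99 to -0.90 after knockdown in adherent cells and tumor spheres.

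With the replicate number as a block the counts were 6566 and 6599 between the cultures, 4874 and 8166 after knockdown and 3428 for the interaction. Among the members the block ended 2 calls, both of ALCAM (knockdown in tumor spheres, adjusted p = 0.0536, and the interaction, 0.0513). Same-numbered libraries did not deviate together in any comparison as a whole (correlations of -0.82 to 0.38, above 0.1 in 3 of 12 pairs), so the numbers were not taken to pair the samples. ALDH3A1 had no value in some fits that asked for 10 counts in every library. Depth limits PROM1 and ALDH1A1, which had 0 to 7 counts in a library.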
